A study of Mus musculus with 20 samples.

Results

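Hox genes of the adult mouse kidney were measured on 20 whole mouse genome arrays, each hybridised with kidney RNA of male C57BL/6 mice. Members were all probes for mouse transcripts whose gene name in the array annotation was Hoxa, Hoxb, Hoxc or Hoxd with a paralog number. This gave 38 of the 27827 gene names on the array, read by 50 of its 41174 probes; Hoxc11 was not among the names. The 5 groups held 4 arrays each. Control mice had no surgery and no agent. IRI mice had 45 min of renal ischemia and 6 h of reperfusion (ischemia-reperfusion injury). IRI+Hemin mice were given 25 mg/kg of hemin, which induces heme oxygenase 1, 24 h before the same injury. IPC+IRI mice were preconditioned by 15 min of ischemia 7 days before the injury, and Hemin mice had hemin alone. The mice were 8 to 12 weeks old per the study's methods. No group of sham-operated mice was among the arrays used here, so the Control and Hemin groups also differ from the others by surgery.

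Hox genes encode transcription factors that bind DNA through a homeodomain. They lie in 4 clusters, Hoxa to Hoxd, in which genes of the same paralog number descend from one ancestral gene, and in the embryo low numbers are expressed toward the head and high numbers toward the tail. In the kidney, the paralogs numbered 11 are needed for the metanephros to form and for the ureteric bud to branch, and Hoxb7 marks the ureteric bud and the collecting ducts that grow from it. Hox proteins bind DNA together with the homeodomain proteins of the Pbx, Meis and Pknox families. Polycomb and Trithorax proteins hold the clusters silent or active, and retinoic acid sets their expression in the embryo.

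By the probe positions in the files (build mm9), the Hoxa probes lay on chr6 (11 genes, 14 probes), the Hoxb probes spanned chr11:96057368-96228510 (10 genes, 15 probes), the Hoxc probes chr15:102758794-102866583 (8 genes, 9 probes) and the Hoxd probes chr2:74508005-74603059 (9 genes, 12 probes). Exons and introns under the probes were not looked up, since no annotation of this build was used here.

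Values are the log2 of a gene's signal over the 75th percentile of its array, so a value of 0 lies at that percentile and a difference of 1 is 2-fold. Levels of different genes come from different probes, so their order is not a result. Of the 38 Hox genes, 24 were well above background, a flag of the scanner software, on all 20 arrays. Another 9 were above it on some arrays: Hoxd3 on 19, Hoxa2 and Hoxa6 on 18, Hoxd12 on 13, Hoxd11 on 11, Hoxc8 on 7, Hoxa13 on 5, Hoxc5 on 2 and Hoxd1 on 1. The other 5 were above background on no array, namely Hoxb1, Hoxb13, Hoxc12, Hoxc13 and Hoxd13. The genes dim on most or all arrays thus stood at the ends of the clusters, apart from Hoxc5 and Hoxc8, while Hoxa2 to Hoxa11 and Hoxb2 to Hoxb9 were above background on 18 or more arrays. Single arrays had between 25 and 31 Hox genes above background. The Hoxd1 signal on 1 array was a lone value of -2.23 in Hemin 2, against -6.28 or lower on the other 19 arrays.

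**Figure D1:**
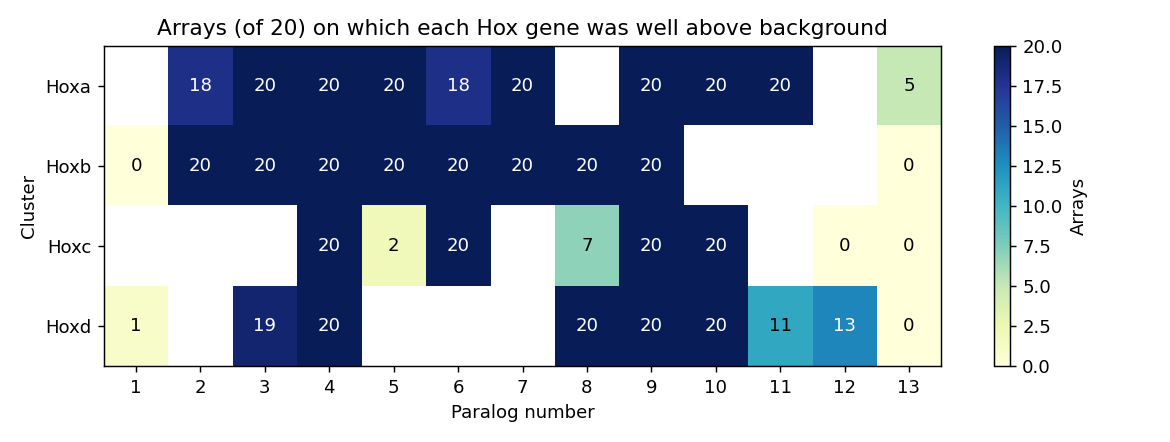
Number of arrays, of 20, on which each Hox gene was well above background, with clusters as rows and paralog numbers as columns; blank cells are genes that do not exist, were not among the names or are not shown. Most genes of the Hoxa and Hoxb clusters were read on all or nearly all arrays, and the paralogs numbered 13 were read on 5 arrays or fewer.

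The 4 arrays of a group shared 1 slide, and no slide held arrays of another group. Control and IRI arrays were scanned on the first day, IRI+Hemin on the second, and IPC+IRI and Hemin on the third, so group and slide cannot be told apart, and of the comparisons below only IRI against Control lies within a scan day. Between 57.4% and 67.4% of all genes were well above background on an array. Markers of proximal tubule, thick limb, distal tubule, collecting duct, podocytes, endothelium and stroma were above background in every group. Of the markers of neighbouring tissue, 1 to 3 of 5 for adrenal gland, 1 to 3 of 5 for skeletal muscle, 1 of 6 for the male genital tract and 1 to 4 of 6 for adipose tissue were above background on at least 3 arrays of a group. Cyp11b2 and Cyp11a1 of the adrenal gland, Ckm of skeletal muscle, and Svs2, Svs4, Svs5, Crisp1 and Lcn5 of the male genital tract were above background on no array. Control 2 stood apart from the other Control arrays in several Hox genes, and IRI 4 from the other IRI arrays. Where leaving out either turned the call of a difference given below, this is said beside it. In RNA of whole kidneys, fewer cells of a type and less RNA per cell cannot be told apart. The labels do not say that arrays of a group came from separate mice, so p-values measure the spread between arrays.

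Ischemia-reperfusion alone came with lower Hox signal. Against Control, 19 of the 30 Hox genes tested fell in IRI and 0 rose, and 27 of the 30 differences were below 0. A change was called at an adjusted p below 0.05 (limma with Benjamini-Hochberg adjustment over all genes tested). Of the 17711 genes tested, 33.7% were called lower and 17.0% higher (50.6% in either direction), so 63.3% of the Hox genes tested stood beside 33.7% of all genes. The median difference was -0.66 for Hox genes and -0.17 for all genes. Detection over all genes was lower in IRI too, with 57.4% to 62.1% of genes well above background on an array against 63.3% to 64.1% in Control, without overlap, and its part in the lower Hox signal was not tested. With a 2-fold change required as well, 6 of the 30 Hox genes were called, beside 20.2% of all genes. A gene could enter the test through 1 of the groups alone, as Hoxa2, Hoxa6, Hoxc8, Hoxd11 and Hoxd12 did. Among the 25 Hox genes above background in both groups, 16 fell and 0 rose, or 64.0%, beside 29.3% of all genes so chosen. The groups did not overlap for 15 of the 30 Hox genes, and for 46.1% of all genes tested. The number that passed depends on the processing: with normexp correction, which here also added an offset of 50 to each signal, 5 Hox genes fell, or 16.7% beside 7.71% of all genes, and with no scaling between arrays 7 did, or 23.3% beside 18.9%. None rose under either.

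**Figure D2:**
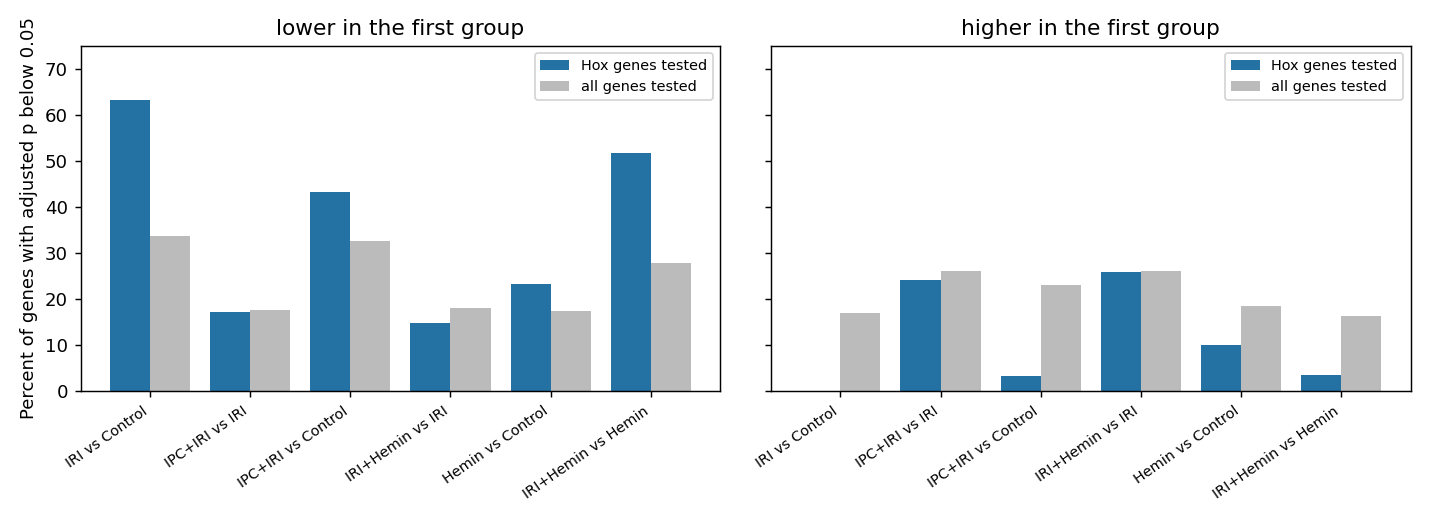
Percent of Hox genes tested (blue) and of all genes tested (grey) that were lower (left) or higher (right) at an adjusted p below 0.05 in each comparison. Shares of lower Hox genes were 63.3% in IRI against Control and 51.7% in IRI+Hemin against Hemin, against 33.7% and 27.8% of all genes.

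By cluster, among genes above background in both groups, 7 of 8 Hoxa genes fell in IRI, 5 of 8 Hoxb genes, 2 of 4 Hoxc genes and 2 of 5 Hoxd genes. By paralog number, 8 of 9 such genes numbered 1 to 4 fell, 5 of 8 numbered 5 to 8 and 3 of 8 numbered 9 to 13; differences between these counts were not tested. Hoxd3, needed with Hoxa3 to form the first neck vertebrae, read -2.56, -2.51, -2.27 and -2.49 in Control and -4.20, -4.49, -4.27 and -4.27 in IRI. All IRI arrays were lower than all Control arrays, a difference of -1.85 (SE 0.18, adjusted p = 3.37e-07) or 3.60-fold. With normexp correction the difference was -0.23 and was not called. Of the 2 Hoxd3 probes, 1 was above background on 0 of 4 IRI arrays and differed by -2.12, and the other differed by -1.79. Hoxc6, a gene of the thoracic region, read 1.01, 0.41, 0.96 and 1.03 in Control and -0.07, -0.52, -0.32 and -1.25 in IRI. The groups did not overlap, and Hoxc6 fell by 1.40 (SE 0.21, adjusted p = 3.17e-05), called under each of 6 background and scaling settings. Hoxa10, known for its role in the uterus, read 1.40, 1.09, 1.31 and 1.37 in Control and 0.41, 0.47, 0.44 and 0.36 in IRI. It fell by 0.87 (SE 0.13, adjusted p = 3.45e-05) with no overlap, and was called under all 5 of those settings that held it.

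Hoxa9 and Hoxa7, which act in blood progenitors and are raised in some leukemias, also fell. Hoxa9 read 0.18, 0.11, 0.15 and 0.24 in Control and -0.58, -0.49, -0.32 and -0.35 in IRI. These groups were apart (difference -0.60, SE 0.12, adjusted p = 0.000427), and Hoxa9 was called under 5 of 6 background and scaling settings. Hoxa7 read 3.05, 3.61, 2.89 and 2.85 in Control and 2.21, 2.85, 2.61 and 1.96 in IRI, which overlap at 2.85 (difference -0.69, SE 0.20, adjusted p = 0.00665). Hoxb7, the ureteric bud gene, read 2.89, 2.71, 2.82 and 2.84 in Control and 2.27, 2.41, 2.17 and 2.04 in IRI. Every IRI array was below every Control array, and Hoxb7 fell by 0.59 (SE 0.13, adjusted p = 0.00107), called under 5 of 6 settings. Hoxb4, which expands blood stem cells when overexpressed, read -1.97, -1.51, -2.04 and -1.82 in Control and -3.05, -3.21, -2.89 and -2.29 in IRI. It fell by 1.03 (SE 0.25, adjusted p = 0.00267) with no overlap and was called under 4 of 6 settings. With normexp correction its difference was -0.28.

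Of the kidney genes of paralog group 11, Hoxa11 read -1.07, -2.20, -1.64 and -1.72 in Control and -2.03, -3.35, -2.96 and -3.12 in IRI, with IRI 1 inside the Control range (difference -1.21, SE 0.36, adjusted p = 0.00909). Hoxd11 was above background on 3 of 4 Control arrays and on 0 IRI arrays, so that it entered the test through Control alone, which favours a fall. Its signal in IRI was at least 1.26-fold lower. The adjusted p of 0.00645 (limma) belongs to the measured difference of -1.74, which rests on IRI values not above background. The bound is the mean of all Control arrays, whether above background or not, against the detection limit of the IRI arrays. Hoxa5, needed for lung development, fell by 0.47 (adjusted p = 0.00406), called under 4 of 6 background and scaling settings.

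In the middle of the Hoxd cluster, Hoxd8 (0.00, 95% interval -0.35 to 0.35), Hoxd9 (0.05, -0.20 to 0.31) and Hoxd10 (0.13, -0.18 to 0.43) were not called. Hoxd8 read 2.23, 2.23, 2.38 and 2.56 in Control and 2.24, 2.51, 2.39 and 2.28 in IRI, which overlap. Without Control 2, Hoxd8 and Hoxd9 differed by -0.04 and -0.03. Hoxc9 was not called either (-0.12, -0.54 to 0.30), and without IRI 4 its difference turned to 0.12. Hoxc10 was not called with all arrays (-0.53, adjusted p = 0.0966), and Control 2 decided this: it read -2.34 against -0.90, -0.88 and -0.89 on the other Control arrays, and without it Hoxc10 differed by -0.89 and was called. Hoxd4 was called lower by 0.99 (SE 0.36, adjusted p = 0.0304), but not without Control 2, Control 4, IRI 2 or IRI 3, where it differed by -0.68, -0.91, -0.79 and -0.79. With all arrays it was called under 4 of 6 background and scaling settings.

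Marker genes of kidney cell types and of other cells were read beside the Hox genes. Of 10 collecting duct markers tested, 1 rose and 4 fell in IRI, with a summed level of 5.17 to 5.46 in Control and 5.34 to 5.85 in IRI, of 6 proximal tubule markers 0 rose and 2 fell, and of 4 podocyte markers 0 rose and 2 fell. For thick limb 0 of 4 rose and 1 fell, for distal tubule 1 of 4 rose and 0 fell, and for endothelium 1 of 5 rose and 2 fell. Of 7 stroma markers, 1 rose and 1 fell, with sums of 3.16 to 3.64 in Control and 3.15 to 3.81 in IRI. The summed level of 7 urothelium markers was -0.69 to 2.22 in Control and 5.60 to 5.79 in IRI. Within it, the keratin gene Krt20 was called higher, from above background on 1 of 4 Control arrays to all IRI arrays, and none of the 5 uroplakin genes and Krt5 passed the test. The sum of 6 leukocyte markers was -0.43 to -0.15 in Control and 0.18 to 0.43 in IRI. Of the 5 leukocyte markers tested, 1 rose and 1 fell, with a median of -0.51 beside -0.17 for all genes. The sum of 6 adipose markers ran from 1.93 to 6.63 in Control and from 2.87 to 6.80 in IRI, and 0 of the 3 tested were called. Sums of 5 adrenal markers were -2.62 to -1.99 in Control and -2.93 to -2.77 in IRI, those of 5 skeletal muscle markers -2.67 to -2.28 and -3.07 to -2.69, and those of 6 male genital tract markers -2.66 to -2.12 and -3.38 to -2.31. The part of these cells in the fall of the Hox genes was not tested.

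**Figure D3:**
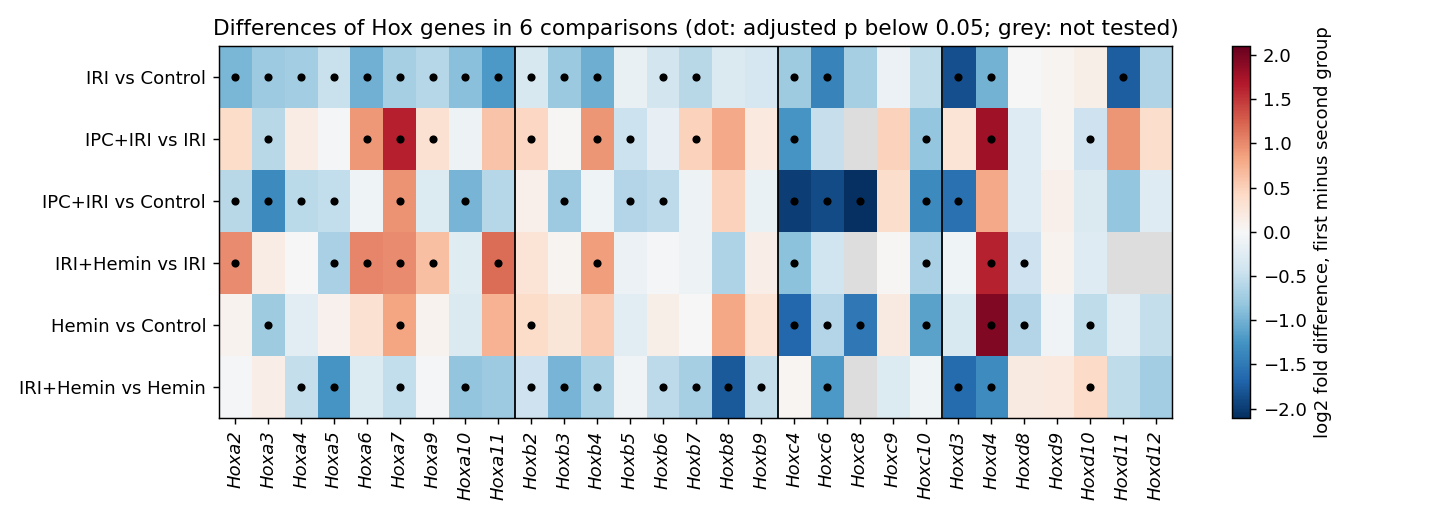
Log2 differences of Hox genes tested, ordered by cluster and paralog number, in 6 comparisons (rows); blue is lower and red higher in the first group named, dots mark an adjusted p below 0.05, and grey cells were not tested. The row of IRI against Control is blue for all genes shown from Hoxa2 to Hoxd4, and Hoxd4 and Hoxa7 are red where preconditioned or hemin-treated kidneys are compared with IRI.

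Preconditioned kidneys differed from IRI in both directions. Of 29 Hox genes tested in IPC+IRI against IRI, 7 rose and 5 fell, or 24.1% and 17.2%, beside 26.0% and 17.7% (either way 43.7%) of all 17662 genes tested. The groups did not overlap for 10 of the 29, and for 37.9% of all genes. These shares were near those of all genes. Among the 25 Hox genes above background in both groups, 6 rose and 5 fell, beside 24.1% and 18.7% of all genes so chosen. Hoxd4, a retinoic acid target of the hindbrain and neck, read -0.75, -1.43, -1.42 and 0.34 in IRI and 0.92, 1.25, 0.95 and 0.78 in IPC+IRI. All IPC+IRI arrays were above all IRI arrays, and Hoxd4 rose by 1.79 (SE 0.36, adjusted p = 0.00086), or 3.46-fold. Hoxa7 read 4.36, 3.90, 3.97 and 3.94 in IPC+IRI, above every IRI value given above, and rose by 1.64 (SE 0.20, adjusted p = 1.22e-05). Hoxb4 read -2.03, -1.84, -1.88 and -1.97 in IPC+IRI and rose by 0.93 (adjusted p = 0.00677) with no overlap. Over 6 background and scaling settings its difference was 0.12 to 1.25, called under 5. Hoxb7 rose by 0.49 and Hoxa9 by 0.32, the latter not called in 4 of 8 fits that left out 1 array. Hoxa6 was called higher too, but was above background on 2 of 4 IRI arrays and entered the test through IPC+IRI. Hoxb2, a gene of hindbrain segments, read 0.62, 0.66, 0.48 and 0.67 in Control, 0.47, 0.45, 0.29 and -0.12 in IRI and 0.76, 0.65, 0.59 and 0.84 in IPC+IRI. It rose by 0.43 against IRI with no overlap, but the sign was turned in the deposited log2 matrix, where the difference was -0.14 and was not called. Hoxb5 read -0.29, -0.48, -0.63 and -0.52 in IRI and -0.98, -0.99, -1.05 and -0.68 in IPC+IRI, and fell by 0.45 (adjusted p = 0.00922) with no overlap. Hoxc4 (-1.24), Hoxc10 (-0.81) and Hoxd10 (-0.43, not called without IRI 3 or IPC+IRI 2) fell too. Hoxa3 was called lower by 0.58, which rests on 1 of its 2 probes: that probe differed by -2.06 and was above background on 1 of 4 IPC+IRI arrays, and the other differed by -0.01 (adjusted p = 0.98). The Hoxa3 call was lost in 4 of 8 fits that left out 1 array. Among cell markers, 1 of 6 for proximal tubule rose and 3 fell, 0 of 5 for endothelium rose and 3 fell, 3 of 10 for collecting duct rose and 2 fell, 2 of 6 for leukocytes rose and 1 fell, 1 of 7 for stroma rose and 1 fell, 0 of 7 for urothelium rose and 1 fell, 1 of 4 for thick limb rose and 0 fell, and 0 of 4 for distal tubule and 0 of 4 for podocytes were called. Their part was not tested.

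Against Control, preconditioned and injured kidneys had more Hox genes lower than higher. Of 30 genes tested, 1 rose and 13 fell, or 3.33% and 43.3%, beside 23.1% and 32.6% of all 18342 genes tested. In either direction 46.7% of Hox genes and 55.8% of all genes were called. The groups did not overlap for 14 of the 30, and for 45.1% of all genes. Among the 29 Hox genes above background in both groups, 1 rose and 12 fell, or 41.4% lower, beside 31.4% of all genes so chosen. The riser was Hoxa7 (0.94, adjusted p = 0.000576). In the Hoxc cluster 3 of 4 such genes fell: Hoxc4 (-1.98), Hoxc6 (-1.89) and Hoxc10 (-1.34). Control and IPC+IRI arrays were scanned on different days, so treatment and scan day cannot be told apart here. Hoxc8, above background on 3 Control arrays and 0 IPC+IRI arrays, entered through Control alone and was at least 2.72-fold lower. Hoxc6 read -1.19, -1.06, -1.02 and -0.86 in IPC+IRI, all below every Control array, and Hoxd3 read -3.82, -3.72, -4.14 and -4.42, lower than Control by 1.57 (adjusted p = 1.95e-06). The Hoxd3 probes differed by -1.45 and -1.62, the former above background on 1 of 4 IPC+IRI arrays. Hoxa10 read 0.77, 0.09, 0.07 and 0.34 in IPC+IRI (difference -0.98, adjusted p = 1.04e-05), also without overlap. Hoxb4 and Hoxd4 were not called against Control. Their differences were -0.10 (95% interval -0.63 to 0.44) and 0.80 (0.03 to 1.56), and without Control 2 the Hoxd4 difference was 1.11 and was called, and that of Hoxb4 was 0.01. Of 6 proximal tubule markers 0 rose and 3 fell (median -0.58, beside -0.09 for all genes), with sums of 8.47 to 8.64 in Control and 7.69 to 8.06 in IPC+IRI. Of 4 podocyte markers 0 rose and 2 fell (median -0.47), with sums of 1.56 to 2.26 and 1.13 to 1.56. Other lists went both ways: 3 of 10 collecting duct markers rose and 4 fell, 2 of 6 leukocyte markers rose and 1 fell, and 1 of 7 urothelium markers rose and 1 fell. Urothelium sums were -0.69 to 2.22 in Control and 3.13 to 5.63 in IPC+IRI, but the list had a median of -1.27. Krt20 was above background on 1 Control array and 4 IPC+IRI arrays. Upk1b, Upk2 and Upk3a were above it on 3, 4 and 4 Control arrays and on 1, 1 and 2 IPC+IRI arrays. In thick limb and distal tubule lists 1 of 4 rose and 0 fell in each, in endothelium 0 of 5 rose and 1 fell, and of 7 stroma markers 0 were called. Their part in the lower Hox signal was not tested.

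**Figure D4:**
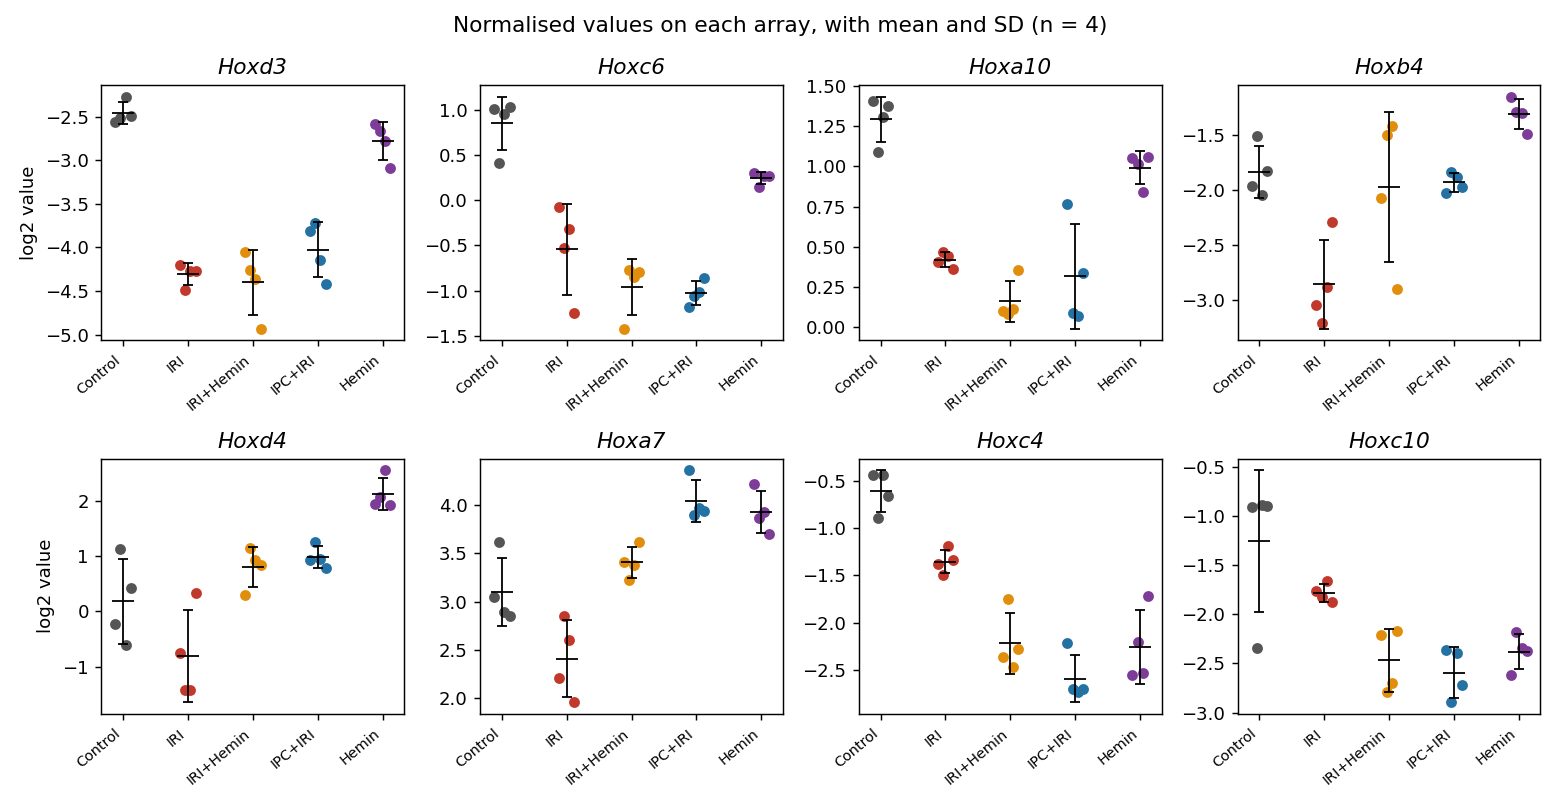
Log2 values of 8 Hox genes on each array by group, with bars for the mean and SD of 4 arrays; each panel has its own scale, and panels are not to be compared by height. Hoxd3, Hoxc6 and Hoxa10 were low in the 3 groups with injury, Hoxd4 was highest in Hemin, and Hoxc4 was lower in all groups scanned after the first day than in Control and IRI.

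Hemin without surgery came with changes in both directions. Of 30 tested in Hemin against Control, 3 rose and 7 fell, or 10% higher and 23.3% lower, beside 18.4% higher and 17.5% lower (either way 35.9%) of all 18571 genes tested. Groups lay apart for 13 of the 30, and for 37.6% of all genes. Among the 29 Hox genes above background in both groups, 3 rose and 6 fell, or 10.3% and 20.7%, beside 18.6% and 17.2% of all genes so chosen. Hoxd4 read 1.95, 2.07, 2.55 and 1.92 in Hemin, against -0.23, 1.13, -0.61 and 0.43 in Control. All Hemin arrays were above all Control arrays, also above Control 2, and Hoxd4 rose by 1.94 (SE 0.36, adjusted p = 0.000787), or 3.84-fold. Hoxa7 read 4.22, 3.87, 3.93 and 3.70 in Hemin, above all Control arrays, and rose by 0.83 (adjusted p = 0.00363). Both rises were called under each of 6 background and scaling settings. Hoxb2 rose by 0.39 (not called without Control 3), and its difference was -0.26 and not called in the deposited log2 matrix. In the Hoxc cluster 3 of 4 such genes fell: Hoxc4 by 1.65, Hoxc10 by 1.12 and Hoxc6 by 0.61, the last not called in 7 of 8 fits that left out 1 array. Of the 6 settings, Hoxc4 was called under 6, Hoxc10 under 4 and Hoxc6 under 4, with differences of up to -0.56 for Hoxc10 and -0.04 for Hoxc6. Hoxc8, above background on 0 Hemin arrays, entered through Control alone and was at least 2.50-fold lower. Hoxd8 and Hoxd10 fell by 0.62 and 0.53. Hoxa3 was called lower by 0.74, but under 3 of 6 background and scaling settings, and the fall rests on 1 of its 2 probes, which differed by -1.61 against -0.23 (adjusted p = 0.399) for the other. Hoxd8 read 1.92, 1.78, 1.60 and 1.61 in Hemin, below every Control array, and its fall was called under 5 of 6 settings. With no scaling between arrays, 13 Hox genes rose and 1 fell, or 43.3% and 3.33%, beside 47.2% and 2.57% of all genes, and the median difference of all genes was 0.62 in place of 0.06. Of the cell markers, 0 of 6 for proximal tubule rose and 2 fell, 2 of 4 for thick limb rose and 0 fell, 0 of 4 for distal tubule rose and 1 fell, and 1 of 10 for collecting duct rose and 2 fell, while for stroma, leukocytes and urothelium 0 rose and 1 fell in each, and for podocytes and endothelium 0 were called. Their part was not tested.

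Hemin before injury was compared with injury alone. Of 27 Hox genes tested in IRI+Hemin against IRI, 7 rose and 4 fell, or 25.9% and 14.8%, beside 26.1% and 18.0% (either way 44.0%) of all 17830 genes tested. Groups were apart for 9 of the 27, and for 38.9% of all genes. The comparison shares its IRI arrays with that of IPC+IRI, so the values are set side by side without counting what they have in common. Hoxd4 read 0.29, 1.14, 0.92 and 0.84 in IRI+Hemin and rose by 1.61 (SE 0.36, adjusted p = 0.00185), with IRI 4 inside the range; without IRI 4 the rise was 1.99. Hoxa7 read 3.41, 3.23, 3.38 and 3.62, above all IRI arrays (1.00, adjusted p = 0.000592). Hoxa9 read 0.07, 0.21, 0.26 and 0.29, also above all IRI arrays (0.64, adjusted p = 0.000407). Hoxa11 (1.17) and Hoxb4 (0.89) rose as well. Over 6 background and scaling settings the Hoxb4 difference was 0.03 to 1.25, called under 5. Hoxa6 and Hoxa2, which sets the identity of the second pharyngeal arch, were called higher too, but were above background on 2 of 4 IRI arrays each and entered the test through IRI+Hemin. Among the 25 Hox genes above background in both groups, 5 rose and 4 fell, beside 24.2% and 19.1% of all genes so chosen. Of the genes that fell, Hoxa5 read -1.20, -1.21, -1.28 and -1.37 in IRI and -1.83, -1.89, -1.70 and -2.34 in IRI+Hemin. All IRI+Hemin arrays were lower (difference -0.68, SE 0.12, adjusted p = 0.000339). Hoxc4 (-0.86), Hoxc10 (-0.69) and Hoxd8 (-0.44) fell too, the last 2 narrowly: each was not called in 6 of 8 fits that left out 1 array, that without IRI 4 among them. Of the cell markers, 3 of 4 for distal tubule fell and 0 rose (median -0.97), with sums of 5.42 to 5.90 in IRI and 4.77 to 5.35 in IRI+Hemin, and 2 of 4 for thick limb rose and 0 fell (median 0.49), with sums of 7.58 to 7.98 and 7.76 to 8.55. For proximal tubule 1 of 6 rose and 2 fell, for collecting duct 2 of 10 rose and 2 fell, for podocytes 1 of 4 rose and 0 fell, for endothelium 2 of 5 rose and 1 fell, for stroma 1 of 7 rose and 1 fell, for leukocytes 0 of 6 rose and 1 fell, and of 7 urothelium markers 0 were called. Their part in the Hox differences was not tested.

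Injury within hemin-treated mice again came with lower Hox signal. Of 29 genes tested in IRI+Hemin against Hemin, 1 rose and 15 fell, or 3.45% and 51.7%, beside 16.4% and 27.8% (either way 44.2%) of all 18628 genes tested. Groups were apart for 14 of the 29, and for 44.6% of all genes. In the Hoxb cluster 7 of 8 genes fell. Hoxb8, which acts in myeloid cells, read -2.24, -1.62, -0.91 and -1.47 in Hemin and -3.08, -2.33, -3.48 and -4.43 in IRI+Hemin. The groups lay apart by a small gap, and the difference was -1.77 (SE 0.36, adjusted p = 0.000791). Hoxd3 fell by 1.62, Hoxd4 by 1.32, Hoxa5 by 1.24, Hoxc6 by 1.20 and Hoxb7 by 0.71. Hoxd3 read -2.58, -2.66, -2.78 and -3.08 in Hemin and -4.05, -4.26, -4.37 and -4.93 in IRI+Hemin, again without overlap. It was called under 5 of 6 background and scaling settings, with differences of -1.80 to -0.37. The Hoxd3 probes differed by -0.70 and -1.97, the former above background on 2 of 4 IRI+Hemin arrays. The riser was Hoxd10 (0.40, adjusted p = 0.0335), whose groups overlapped and which was not called in 5 of 8 fits that left out 1 array. Of 6 proximal tubule markers 0 rose and 4 fell (median -0.53, beside -0.15 for all genes), with sums of 8.20 to 8.37 in Hemin and 7.67 to 8.09 in IRI+Hemin. Of 4 distal tubule markers 0 rose and 2 fell (median -0.52), with sums of 5.29 to 5.92 and 4.77 to 5.35. Urothelium sums were -0.09 to 1.44 in Hemin and 4.08 to 6.12 in IRI+Hemin, with 1 of 7 markers higher and 0 lower, and leukocyte sums -0.59 to -0.32 and -0.09 to 0.92, with 1 of 6 higher and 1 lower. The medians were -0.25 for urothelium and -0.07 for leukocytes, beside -0.15 for all genes. For thick limb 1 of 4 rose and 1 fell, for collecting duct 1 of 10 rose and 2 fell, for stroma 0 of 7 rose and 2 fell, and 0 of 4 podocyte and 0 of 5 endothelium markers were called. Their part in the lower Hox signal was not tested.

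Whether the effect of injury differed with hemin was tested by the interaction, the difference IRI+Hemin minus Hemin less the difference IRI minus Control. Of 30 Hox genes tested, 3 passed, 2 above and 1 below 0, beside 7.77% of 19058 genes (5.82% above and 1.95% below 0). The shares of Hox genes, 6.67% above and 3.33% below 0, were near those of all genes. With normexp correction and with no scaling between arrays, 0 Hox genes passed (limma; 3 and 2 had an unadjusted p below 0.05), beside 0.766% and 2.11% of all genes. Hoxa2 had an interaction of 0.93 (SE 0.25, adjusted p = 0.0303), but it was above background on 2 of 4 IRI arrays, so its level in IRI is not well measured, and the call was lost in 5 of 16 fits that left out 1 array; within hemin-treated mice it differed by -0.04. Hoxa9 fell by 0.60 and differed by -0.04 within hemin-treated mice (interaction 0.57, SE 0.17, adjusted p = 0.0453), a call lost in 13 of 16 fits that left out 1 array, that without Control 2 among them. Hoxa5 went the other way, with differences of -0.47 and -1.24 (interaction -0.77, SE 0.17, adjusted p = 0.0111). Leaving out single arrays gave between 1 and 4 genes: 1 without Control 1, Control 4 or Hemin 3, where Hoxa5 remained. For Hoxd4 the interaction was -0.33 (95% interval -1.41 to 0.75), which was not called (0.05 without IRI 4), and likewise for Hoxa7 at 0.17 (-0.41 to 0.75).

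Hoxc4 and Hoxc10 were lower on the arrays of the later scan days, with 1 exception for Hoxc10. Hoxc4 read -0.43, -0.89, -0.44 and -0.66 in Control, -1.38, -1.50, -1.19 and -1.34 in IRI, -2.36, -1.75, -2.47 and -2.28 in IRI+Hemin, -2.21, -2.70, -2.73 and -2.71 in IPC+IRI and -2.56, -2.20, -2.54 and -1.72 in Hemin. Every array of the later days was below every array of the first day. This held for Hoxc4 alone of the 24 Hox genes above background on all arrays, and for 2.92% of 14526 such genes, while 1.96% were above. Hoxc10, which specifies lumbar motor neurons, read -1.76, -1.83, -1.66 and -1.87 in IRI, -2.21, -2.79, -2.70 and -2.17 in IRI+Hemin, -2.36, -2.90, -2.40 and -2.72 in IPC+IRI and -2.61, -2.18, -2.34 and -2.38 in Hemin. Only Control 2 of the first day reached into the range of the later days. Within the first day Hoxc4 fell in IRI by 0.75 (SE 0.19, adjusted p = 0.00348), with no overlap. That fall was called under 4 of 6 background and scaling settings, with differences of -0.99 to -0.43. In the other comparisons of these genes with Control or IRI, treatment, slide and scan day cannot be told apart.

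The paralogs numbered 4 held the largest differences of opposite sign: in Hemin against Control Hoxd4 was higher by 1.94, Hoxc4 lower by 1.65, and Hoxb4 (0.53, adjusted p = 0.109) and Hoxa4 (-0.23, adjusted p = 0.268) were not called. Promoters of Hoxb4, Hoxc4 and Hoxd4 are shown for this contrast. RefSeq promoters of build GRCm38.p6 were matched for 22 of the 38 Hox genes, with 24 start sites. Each sequence below is the 250 bases before the start site, on the gene's strand, with capitals for TGACCT, the reverse complement of AGGTCA, the core sequence that retinoic acid receptors and other nuclear receptors bind.
Hoxb4, chr11:96318017-96318266, plus strand: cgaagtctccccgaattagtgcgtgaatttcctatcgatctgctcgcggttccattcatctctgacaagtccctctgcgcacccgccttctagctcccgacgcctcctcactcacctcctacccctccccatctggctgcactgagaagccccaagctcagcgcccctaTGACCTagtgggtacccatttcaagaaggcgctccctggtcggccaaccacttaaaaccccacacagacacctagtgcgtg
Hoxc4, chr15:103034145-103034394, plus strand: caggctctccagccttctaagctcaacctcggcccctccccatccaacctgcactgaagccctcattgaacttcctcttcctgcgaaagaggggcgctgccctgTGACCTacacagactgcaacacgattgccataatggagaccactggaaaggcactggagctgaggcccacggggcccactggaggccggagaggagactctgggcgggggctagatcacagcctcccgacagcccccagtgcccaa
Hoxd4, chr2:74721728-74721977, plus strand: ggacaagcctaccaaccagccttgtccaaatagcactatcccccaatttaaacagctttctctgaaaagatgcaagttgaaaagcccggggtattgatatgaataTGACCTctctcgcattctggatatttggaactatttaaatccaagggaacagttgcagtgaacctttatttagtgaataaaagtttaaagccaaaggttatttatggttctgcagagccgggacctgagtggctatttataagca
AGGTCA was found on either strand in 25.0% of the 24 Hox promoters and 14.0% of all 32851. ACGTG was found in 20.8% and 16.6%, CACGTG, which contains it, in 16.7% and 6.02%, and TGACNNNGC, the core of the sites that NRF2 and BACH1 bind, in 4.17% and 10.2%. Hox promoters had a median of 12.5 CG pairs and 58.6% G and C, and all promoters 6 and 52.4%. The Hoxd4 promoter had 3 CG pairs, that of Hoxb4 14 and that of Hoxc4 8. A match is a description of the sequence, and binding was not measured.

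Probes of the same gene did not always move together. Of the 38 genes, 12 had 2 probes. In IRI against Control, the median gap between the differences of a gene's probes was 0.30 over 9 genes, and in IRI+Hemin against IRI 0.64 over 8 genes. Hoxa3, needed for the thymus and parathyroid glands, was the gene whose probes were called in opposite directions. The first 30 bases of the probes of Hoxa3, Hoxb6, Hoxb9 and Hoxd4 are shown: for Hoxa3, Hoxb6 and Hoxb9 both probes, since their values are compared below, and for Hoxd4 its single probe, since the Hoxd4 values above rest on it; no base is marked.
Hoxa3, chr6:52119744-52119803, minus strand: ggtaatgcgtttttatagtttatgtgacgt
Hoxa3, chr6:52120410-52120469, minus strand: agccctgtgcctcccggtgcaggaggctat
Hoxb6, chr11:96162563-96162622, plus strand: tcgagtctcatttcgtccatgtcccccgtg
Hoxb6, chr11:96160281-96160340, plus strand: ggtgctatttgacaattcctgcctctgcca
Hoxb9, chr11:96137748-96137807, plus strand: gcttgtgttttgtgatttctttggcagtga
Hoxb9, chr11:96137065-96137124, plus strand: tcctatcctcatttgacagaatgtaacttt
Hoxd4, chr2:74566866-74566925, plus strand: tcatatggcaggagctactgagaacataaa
The Hoxa3 probe listed first read -2.65, -3.48, -2.79 and -3.25 in IRI and -5.05, -4.24, -4.91 and -5.59 in IRI+Hemin. The probe listed second read -2.15, -2.62, -2.64 and -3.20 in IRI and -1.73, -1.81, -2.28 and -1.54 in IRI+Hemin. The first fell by 1.90 without overlap (adjusted p = 0.000446), and the second rose by 0.81 with overlap (adjusted p = 0.00408). The gene value differed by 0.16 and was not called, and its sign was turned to -0.55 when log2 values were averaged over probes. Against Control, the first probe differed by -1.61 in Hemin and by -2.80 in IPC+IRI, where it was above background on 1 of 4 arrays, and the second by -0.23 and -0.69.

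Hoxb6 and Hoxb9, genes of the thoracic region, were split as well. The Hoxb6 probe listed first read 2.24, 2.13 and 2.18 on 3 Control arrays, since its spot on Control 1 was removed as an outlier, and 1.88, 1.68, 1.75 and 2.14 in IRI (difference -0.32, adjusted p = 0.0637). The probe listed second, made from another transcript record, read 0.98, 0.52, 1.06 and 1.28 in Control and -0.33, -0.42, -0.24 and -0.47 in IRI. It fell by 1.33 (adjusted p = 9.16e-06), and by 2.09 in IPC+IRI against Control. The gene value of Control 1 rests on this probe alone. Hoxb6 fell by 0.38 in IRI against Control with it (adjusted p = 0.0468) and by 0.56 without Control 1, and was not called in 6 of the 8 fits that left out 1 array, that without Control 2 among them. Of the Hoxb9 probes, the one listed first read -0.21, 0.66, -0.09 and 0.75 in Control and 1.20, 1.42, 1.45 and 1.26 in Hemin, a rise of 1.06 (adjusted p = 0.01). The other read 1.60, 0.97, 1.20 and 1.42 in Control and 1.04, 0.97, 0.94 and 1.13 in Hemin (-0.28, adjusted p = 0.342). On IRI 4 the first read 0.76 and the second 0.12, against -0.49, -0.62 and -0.82, and 1.10, 1.30 and 1.27, on the other IRI arrays.

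**Figure D5:**
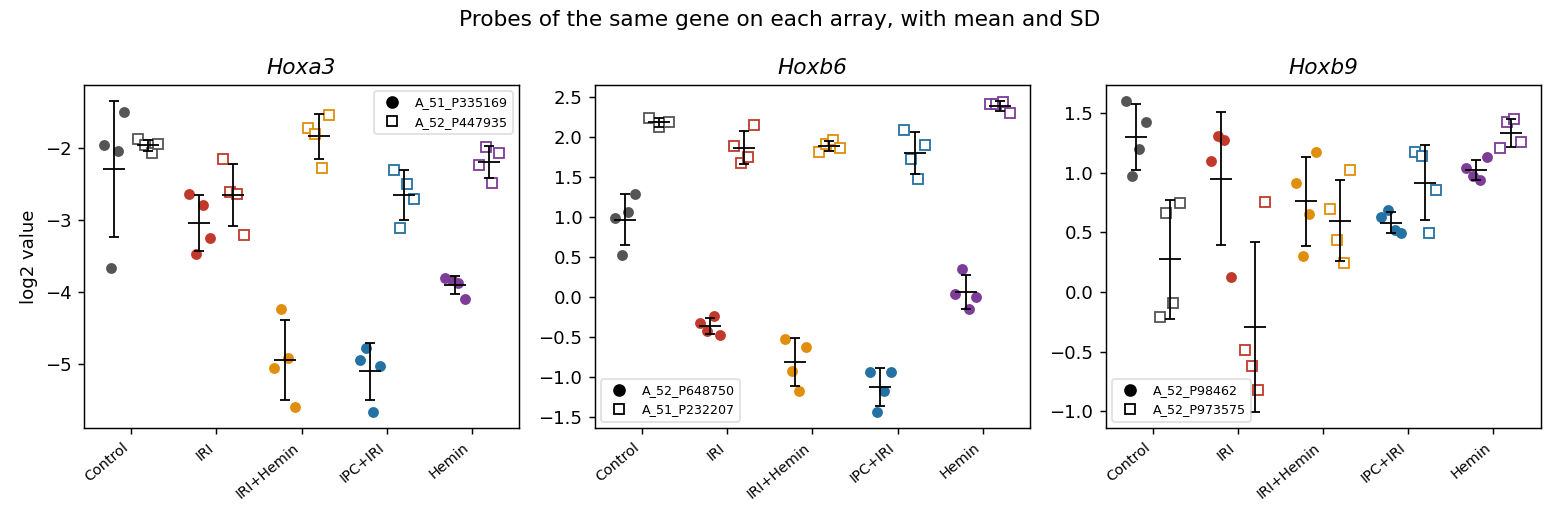
Log2 values of both probes of Hoxa3, Hoxb6 and Hoxb9 on each array, by group, with bars for the mean and SD of up to 4 arrays; filled circles and open squares are the probes named in each key. The filled Hoxa3 probe dropped to -4.24 or lower in IRI+Hemin and IPC+IRI, and the open one stayed between -3.20 and -1.54 on all arrays.

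Of 11 genes of proteins that bind DNA with Hox proteins tested in IRI against Control, 1 rose and 5 fell, where 17.0% of all genes rose and 33.7% fell (50.6% either way), so about as large a share was called as of all genes. Pknox2 fell by 1.34 and Pbx2 by 0.87, and Tgif1, a repressor of the same family, rose by 3.00. Against IRI, Tgif1 fell by 1.77 in IPC+IRI and by 1.39 in IRI+Hemin, and Meis2 rose by 0.81 in IRI+Hemin. Meis1 was called lower in IRI against Control and higher in IRI+Hemin against IRI, but was above background on 2 of 4 IRI arrays. Of 11 kidney development genes tested in IRI against Control, 1 rose and 6 fell beside the same shares of all genes: Osr1 fell by 1.55 and Lhx1 by 1.22, Gdnf, the signal to the ureteric bud that the group 11 paralogs activate, was above background on 4 Control arrays and 0 IRI arrays, and Pax8 rose by 1.16. Their median was -0.59, beside -0.17 for all genes. Gdnf and Pax2, the latter above background on 3 Control arrays and 0 IRI arrays, entered the test through Control alone, which favours a fall. Both are part of that median, and a count without them was not made.

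Among regulators of the Hox clusters, too, the share called in IRI against Control was near the 50.6% of all genes. Of 13 genes tested of retinoic acid signalling, Cdx factors and Gmnn (geminin, which binds Hox proteins), 1 rose and 5 fell. The receptor gene Rarg fell by 1.44, Cyp26a1, whose product degrades retinoic acid, was called lower but was above background on 1 of 4 IRI arrays, and Aldh1a1, whose product makes it, rose by 1.32. Rarb rose by 1.43 in IRI+Hemin and by 0.75 in IPC+IRI against IRI. In Hemin against Control, where Hoxd4 rose, 2 of 12 genes of this list rose (Gmnn by 1.09 and the receptor gene Rxrb by 0.30) and Rarg fell by 0.76, where 18.4% of all genes rose and 17.5% fell. Of 29 Polycomb genes tested in IRI against Control, 5 rose and 11 fell with a median of -0.05, and of 17 Trithorax and H3K27 demethylase genes 4 rose and 5 fell with a median of -0.18.

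Neighbours of the Hox genes were counted to see whether other genes in and around the clusters moved likewise. Between the outermost Hox probes of the clusters and within 500000 bases of them there were 80 other gene names, noncoding ones included. Of these, 52 were tested in IRI against Control: 6 rose and 22 fell with a median of -0.27, where 17.0% of all genes rose and 33.7% fell with a median of -0.17. Around Hoxb 1 of 19 rose and 11 fell, around Hoxc 4 of 25 rose and 8 fell, around Hoxa 1 of 4 rose and 1 fell, and around Hoxd 0 of 4 rose and 2 fell. Some neighbours entered through Control alone, which favours a fall, such as Ttll6 (above background on 4 Control arrays and 0 IRI arrays) and Calcoco2 (4 and 1). Neighbours above background in both groups were not counted apart. With 4 genes tested around Hoxa and around Hoxd, their counts say little about the surroundings of either cluster. In Hemin against Control, 9 of 55 neighbours rose and 14 fell. Around Hoxc 3 of 25 rose and 11 fell, with a median of -0.25, around Hoxb 4 of 22 rose and 2 fell, around Hoxa 1 of 4 rose and 0 fell, and around Hoxd 1 of 4 rose and 1 fell, where 18.4% of all genes rose and 17.5% fell with a median of 0.06; treatment and scan day cannot be told apart there either.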

How the data were processed

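Kidney RNA of 20 samples in 5 groups of 4 was hybridised to 1-colour Agilent whole mouse genome arrays. Per the file headers, the deposited spot intensity was background-subtracted and detrended within each array by Agilent Feature Extraction 9.5.3.1. The authors also deposited a matrix of log2 values, used here as an alternative. After control and outlier spots were removed, repeat spots were averaged by probe and signals were scaled to the 75th percentile of the array, then put on the log2 scale. Genes above background on at least 3 of 4 arrays of a compared group were tested with limma 3.58.1 in R 4.3.3, fitted over all 5 groups without a replicate block and adjusted by Benjamini-Hochberg over all genes tested. The number of arrays limits precision. For IRI against Control, independent normal values were simulated with 200 of 17711 genes changed and no slide effect. There, 75% of 2-fold and 94% of 4-fold changes were recovered with 10 false calls. In the data 50.6% of genes were called, so these figures need not hold for them. Groups came from the sample labels. Genes given in full were the 5 of highest Control signal (an order across different probes, used only to choose genes to show), Hoxd4, Hoxb9 and Hoxa7, and, per comparison, the 3 largest rises and falls without overlap and above background on all 8 arrays; other values were added after they were seen. Members and gene lists were chosen with earlier results of these data known. Other backgrounds, scalings, filters, probe rules, the methods' t-test (which they name for group differences, while their gene calls came from SAM, a permutation method not run here) and leaving out single arrays were tried. Some items are counted in the totals but are not reported here by name or sequence.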

Additional observations from a re-analysis of the deposited data

Results flagged for a closer look

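Single arrays lay far from the other 3 of their group in 6 of the 90 gene and group sets checked, where chance gives about 1 in 20. Hoxa7 read 4.36 on IPC+IRI 1, Hoxa10 0.35 on IRI+Hemin 4 and Hoxc4 -2.21 on IPC+IRI 1. Hoxc6 read 0.41 on Control 2 and -1.42 on IRI+Hemin 1, and Hoxc10 read -2.34 on Control 2. Control 2 thus appeared for 2 genes of the Hoxc cluster.

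The effect of ischemia differed with hemin, by the interaction test, for Hoxa2 (0.93), Hoxa5 (-0.77) and Hoxa9 (0.57). None of the 3 was called with normexp correction or with no scaling between arrays, and Hoxa2 was above background on 2 of 4 IRI arrays. The 3 genes are 3 of 30 Hox genes tested, beside 7.77% of all genes.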

How the results depend on the processing

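With normexp background correction, 5 Hox genes were called in IRI against Control (19 as reported), 6 in Hemin against Control (10) and 0 in the limma interaction test (3), where 3 had an unadjusted p below 0.05; of all genes 17.7%, 19.6% and 0.766% were called. With no scaling between arrays the counts were 7 in IRI against Control, 9 in IPC+IRI against Control (14), 9 in IRI+Hemin against Hemin (16) and 0 in the interaction, where 2 had an unadjusted p below 0.05, beside 29.8%, 44.8%, 26.0% and 2.11% of all genes. That setting turned the split of higher to lower calls from 3 and 7 to 13 and 1 in Hemin against Control, from 7 and 4 to 8 and 0 in IRI+Hemin against IRI, from 7 and 5 to 9 and 1 in IPC+IRI against IRI, and from 1 and 13 to 3 and 6 in IPC+IRI against Control, where of all genes 47.2% and 2.57%, 36.3% and 3.35%, 32.9% and 3.31%, and 33.7% and 11.1% were higher and lower. Normexp gave 4 and 5 in IRI+Hemin against IRI (14.6% and 17.8% of all genes). The deposited matrix gave 7 calls there (11; 41.3% of all genes), and 7 higher and 1 lower in IPC+IRI against IRI (28.6% and 10.5% of all genes). Requiring a 2-fold change left 6, 3, 6, 4, 4, 5 and 0 genes in IRI against Control, IPC+IRI against IRI, IPC+IRI against Control, IRI+Hemin against IRI, Hemin against Control, IRI+Hemin against Hemin and the interaction, beside 20.2%, 11.6%, 22.0%, 12.5%, 8.16%, 14.3% and 5.12% of all genes. For IRI against Control, 6 of 30 was near the share of all genes at this limit. The methods' t-test called 7 of 29 in IPC+IRI against IRI (12), beside 32.6% of all genes. The interaction held 5 genes when scaled by probes above background on all arrays and 5 by single probes, beside 9.46% of all genes and 8.14% of all probes. Leaving out single arrays gave, in the same order, 16 to 21, 10 to 13, 14 to 16, 9 to 11, 9 to 12, 12 to 15 and 1 to 4. Hoxb2 was reversed in the deposited matrix (-0.14 in IPC+IRI against IRI, -0.90 against Control, -0.26 in Hemin against Control), and Hoxa3 in IRI+Hemin against IRI by averaging log2 values (-0.55). The cause was not tested. The replicate block called 18, 11, 14, 10, 10, 15 and 2 genes in that order, beside 48.8%, 41.6%, 54.1%, 41.8%, 33.7%, 41.9% and 6.68% of all genes. Deviations from the group mean on arrays of the same number correlated between -0.28 and 0.18 over 24 pairs. No pairing by number was seen, but these correlations cannot exclude a shared batch. The slide could not be fitted as a block, since each held 1 group.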
